A study of Homo sapiens with 4 samples.

Results

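Condensin, DNA topoisomerase II alpha (TOP2A) and Ki-67 (MKI67) shape mitotic chromosomes, and the transcripts of 10 such genes were followed in SKOV3 cells given rhSTIP1. The genes were both SMC subunits (SMC2 and SMC4), the non-SMC subunits of condensin I (NCAPD2, NCAPG and NCAPH) and of condensin II (NCAPD3, NCAPG2 and NCAPH2), TOP2A and MKI67. They were chosen by name and with earlier results of these data known, so their counts are no independent support. They were 10 of the 19775 genes with a probe set of their own on the array. All 23 probe sets annotated to them were taken. SKOV3 cells with rhSTIP1 had 2 arrays, and control SKOV3 cells without it also had 2. SKOV3 is an established human ovarian carcinoma line, and rhSTIP1 was read as recombinant human STIP1, an HSP70 and HSP90 cochaperone that tumour cells also secrete. The sources used here state no dose, duration or vehicle. Nothing in the labels tells if both arrays of a group were grown as separate cultures, and the tests therefore measure only the spread between these arrays, which may be technical.

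Condensins are ring-shaped ATPases that form loops of chromatin and so compact chromosomes for segregation. In both complexes an SMC2 and SMC4 pair is closed by a kleisin (NCAPH or NCAPH2) that carries a pair of HEAT-repeat subunits (NCAPD2 and NCAPG, or NCAPD3 and NCAPG2). Condensin II is nuclear throughout the cell cycle, whereas condensin I reaches the chromosomes after the nuclear envelope breaks down. TOP2A passes one DNA duplex through another and lies on the chromosome axis with condensin. Ki-67 coats the surface of mitotic chromosomes, keeps them apart, and is widely stained in tumours as a marker of cycling cells.

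All 10 genes had lower signals on each rhSTIP1 array than on each control array, by the brightest probe set of each gene and at the deposited scaling. For 8 of them the group difference was also at least 1.5-fold, a state called separated from here on. The exceptions were the condensin II subunits NCAPD3 and NCAPH2, whose arrays overlapped after median centring. At the deposited scaling those of NCAPH2 also overlapped on probe sets 227076_at and 209718_at, but not on 40640_at. Among all 12296 genes tested, 3.79% were separated and lower and 14.9% were lower without overlap at any size of difference. Across the series 466 genes were separated and lower and 234 (1.9%) were separated and higher, or 340 and 348 after median centring of the arrays. The median log2 fold change of the 10 genes was −0.87, and that of all genes tested was 0.02. Fold changes are differences of mean log2(signal + 16), rhSTIP1 minus control, with the standard error of the limma model after the ± sign, and they understate the change of dim genes.

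No gene of the 10 passed limma's test at an adjusted p of 0.05 over all genes, and 0 of 12296 genes passed (0%). The adjusted p of the 10 lay between 0.702 and 0.999. At an unadjusted p under 0.05 there were 8 of the 10, all lower, against 2.64% of all genes. An exact permutation test of 2 arrays against 2 cannot give a two-sided p below 0.333 for a single gene. In a bulk lysate, fewer cells that carry a transcript and less of that transcript per cell cannot be told apart.

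**Figure D1:**
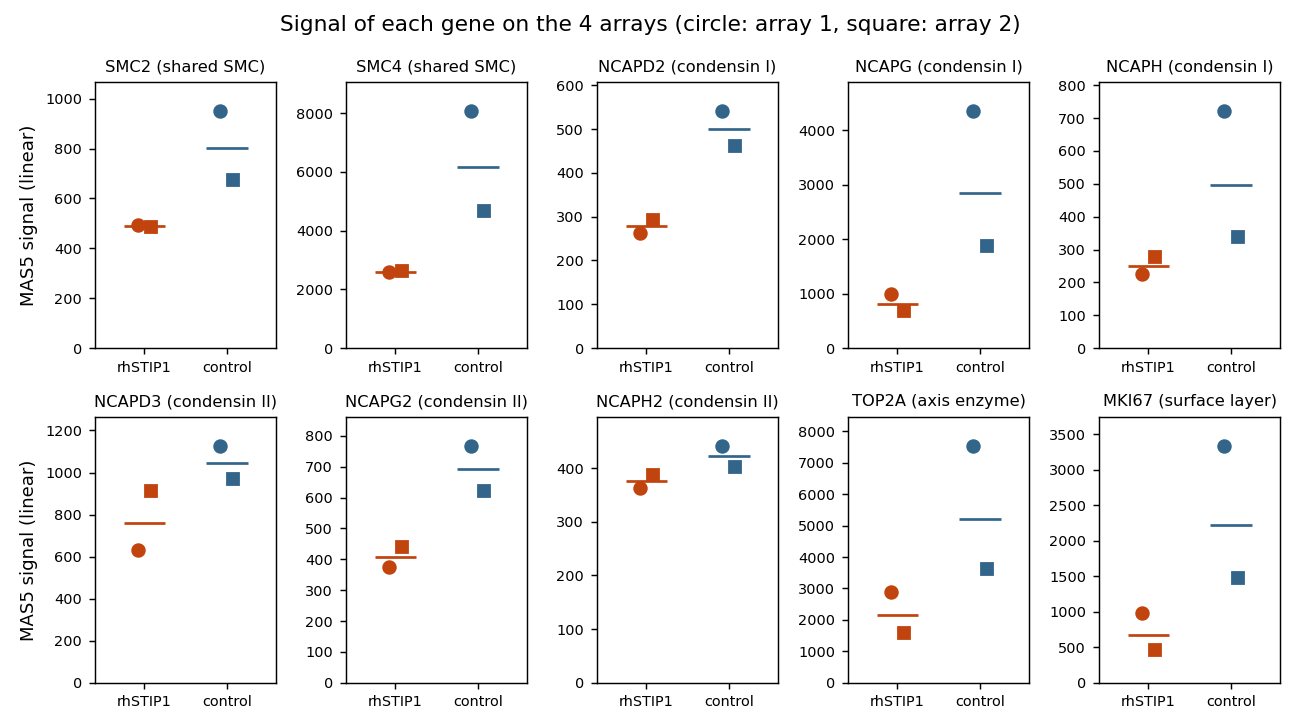
MAS5 signal (linear axis from 0) of the brightest probe set of each gene on the rhSTIP1 arrays (left, orange) and the control arrays (right, blue), with circles for array 1, squares for array 2 and a line at the mean on the log2(signal + 16) scale. Both rhSTIP1 points lie below both control points in all 10 panels, by least in NCAPH2 (364 and 388 with rhSTIP1, 442 and 403 in the controls).

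Array quality was read from the same table. Median signals were 69.0 on both rhSTIP1 arrays, against 66.0 and 79.2 on the control arrays. RNA degradation raises the ratio of 3′ over 5′ ACTB probe sets, which was 2.62 and 8.79 on rhSTIP1 arrays 1 and 2, against 2.74 and 2.45 on the control arrays. The same ratio of GAPDH was 0.992 and 1.32 on the rhSTIP1 arrays, against 0.987 and 1.16 on the control arrays. Without rhSTIP1 array 2 the median log2 fold change of the 10 genes was −0.87, as with it. For 4 of the 10 the difference shrank, as in MKI67 (−1.69 to −1.16), TOP2A (−1.27 to −0.85) and NCAPG (−1.78 to −1.51). In the others it grew, as in NCAPD3 (−0.46 to −0.72). Over all genes tested, which are not independent replicates, rhSTIP1 array 2 correlated at 0.967 with rhSTIP1 array 1 and at 0.979 with control array 2. Control array 1 correlated at 0.967 and 0.952 with rhSTIP1 arrays 1 and 2 and at 0.964 with control array 2. Control array 2 and rhSTIP1 array 1 correlated at 0.969. Control array 2 was thus nearer to both rhSTIP1 arrays than to control array 1. Of 8 markers of an epithelial ovarian carcinoma line all were tested and 0 were separated (3.79% of all genes lower, 1.9% higher). Among them WT1 was dim, with 37.3 and 118 with rhSTIP1 and 91.0 and 97.8 in the controls. The summed signals of all 8 were 53998 and 55230 with rhSTIP1 and 50948 and 49427 in the controls. The summed signals of 6 fibroblast markers were 664 and 516 with rhSTIP1 and 621 and 433 in the controls. Those of 4 leukocyte markers were 88.6 and 192 with rhSTIP1 and 111 and 103 in the controls, and those of 3 endothelial markers were 301 and 148 with rhSTIP1 and 136 and 181 in the controls.

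Promoter sequences are shown because 8 of the 10 genes were separated and lower, though none passed the adjusted test. They come from RefSeq (GRCh38.p14) and run from 250 bases before to 50 bases after the annotated transcription start, on the strand of the gene. Entries were matched for 9 of the 10 genes, all but NCAPH2. Many genes expressed late in the cell cycle carry a cell cycle genes homology region (CHR), with the letters TTTGAA or TTTAAA, which is bound by the DREAM complex and by complexes of MYBL2 and FOXM1. Capitals mark these letters on either strand in the windows of the 4 genes that were lower by at least 1 log2 unit and of NCAPD3, a condensin II subunit with a smaller difference.
NCAPG, chr4:17810729-17811028, + strand: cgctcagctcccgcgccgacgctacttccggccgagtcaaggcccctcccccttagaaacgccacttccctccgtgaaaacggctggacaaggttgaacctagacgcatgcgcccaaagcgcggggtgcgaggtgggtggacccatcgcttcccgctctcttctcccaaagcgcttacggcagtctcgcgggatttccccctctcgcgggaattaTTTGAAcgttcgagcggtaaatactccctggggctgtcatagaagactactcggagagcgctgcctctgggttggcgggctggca
MKI67, chr10:128126374-128126673, − strand: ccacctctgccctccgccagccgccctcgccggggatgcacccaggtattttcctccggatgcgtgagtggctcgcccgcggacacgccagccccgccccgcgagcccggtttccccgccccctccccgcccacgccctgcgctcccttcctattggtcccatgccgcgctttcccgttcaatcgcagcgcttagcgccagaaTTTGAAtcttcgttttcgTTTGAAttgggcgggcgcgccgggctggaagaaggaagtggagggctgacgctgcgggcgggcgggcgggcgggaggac
TOP2A, chr17:40417847-40418146, − strand: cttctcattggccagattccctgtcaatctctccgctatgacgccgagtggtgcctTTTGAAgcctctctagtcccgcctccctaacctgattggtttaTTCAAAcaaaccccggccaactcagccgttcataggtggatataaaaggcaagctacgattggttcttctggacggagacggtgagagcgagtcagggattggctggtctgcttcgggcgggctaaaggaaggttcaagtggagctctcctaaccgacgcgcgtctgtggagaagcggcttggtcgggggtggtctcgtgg
SMC4, chr3:160399400-160399699, + strand: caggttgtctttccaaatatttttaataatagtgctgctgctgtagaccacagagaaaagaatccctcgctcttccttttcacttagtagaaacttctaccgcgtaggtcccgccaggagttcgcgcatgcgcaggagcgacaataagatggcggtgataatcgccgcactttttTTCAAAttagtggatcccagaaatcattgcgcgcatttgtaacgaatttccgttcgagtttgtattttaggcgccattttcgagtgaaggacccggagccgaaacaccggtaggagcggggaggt
NCAPD3, chr11:134223918-134224217, − strand: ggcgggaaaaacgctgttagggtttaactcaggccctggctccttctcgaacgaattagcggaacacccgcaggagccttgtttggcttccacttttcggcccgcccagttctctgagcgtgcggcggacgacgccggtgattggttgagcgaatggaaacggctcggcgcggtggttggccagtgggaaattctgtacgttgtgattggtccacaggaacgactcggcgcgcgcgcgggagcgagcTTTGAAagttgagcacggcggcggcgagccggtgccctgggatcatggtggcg

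TTTGAA or TTTAAA stood in at least 1 window of all 9 genes with an entry, against 27.9% of the 27305 genes of the table. NCAPD3, the gene printed here that was not separated, also held it. The letters began 3 bases before the transcription start in its second annotated window, and its first window held none. In NCAPG the letters began 35 bases before the start, in MKI67 47 and 29 bases before it, and in SMC4, on the opposite strand, 75 bases before it. TOP2A held them 194 bases before the start and, on the opposite strand, 151 bases before it. NCAPH was the only one of the 9 with TTTAAA, from base 33 after the start, and NCAPG2 held TTTGAA from base 36. SMC2 and SMC4 each had a second window without a match. The 9 genes have 12 windows in all, and 9 of them held a match, against 24.0% of the 35116 windows of the table.

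CCAAT, the letters bound by NF-Y, often stands near a CHR in genes of the late cell cycle. On either strand it was found in 5 of the 9 genes (39.7% of all genes of the table). TOP2A and NCAPD2 held 4 copies each, all on the strand opposite to the gene, MKI67 and NCAPD3 held 2 and NCAPH held 1. In MKI67 the copy nearest to the start, 24 bases before it, shares a base with the TTTGAA that begins 29 bases before the start. E2F-like letters (TTGGCGC or TTCCCGC, either strand) were found in NCAPG, 101 and 45 bases before the start, and in NCAPD3, against 11.0% of all genes. These matches describe letters in a window and show no binding.

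The SMC subunits, which form the ATPase core of both condensins, were lower by unequal amounts. SMC4 had signals of 2589 and 2617 with rhSTIP1, against 8080 and 4681 in the controls. The rhSTIP1 arrays were nearly equal and the gap lay in how far each control stood above them. The log2 fold change was −1.24 ± 0.29, or 2.35-fold lower (adjusted p = 0.702). SMC2 had signals of 495 and 487 with rhSTIP1, against 951 and 674 in the controls, at −0.69 ± 0.26 (adjusted p = 0.999). Without control array 1 the log2 fold change of SMC2 was −0.44, below the 1.5-fold limit, and it was −0.93 without control array 2.

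A second SMC2 probe set, 204240_s_at, read 410 and 423 with rhSTIP1 and 907 and 740 in the controls, at −0.95 ± 0.26. SMC4 also had 201663_s_at, with 1037 and 756 with rhSTIP1 and 3612 and 1645 in the controls, at −1.45 ± 0.39. Both second probe sets were separated and lower, like the brighter ones. The third SMC4 probe set, 215623_x_at, was dim, with 70.6 and 67.9 with rhSTIP1 and 92.0 and 86.3 in the controls, at −0.30 ± 0.37. The suffix x marks probes that may match other transcripts.

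NCAPG, a HEAT-repeat subunit of condensin I that contacts DNA, had the lowest fold change of the 10 genes. Its signals were 990 and 676 with rhSTIP1, against 4358 and 1871 in the controls. The lower control was above the higher rhSTIP1 array by 0.91 log2 units, less than the 1.21 between the control arrays. The log2 fold change was −1.78 ± 0.41, or 3.44-fold lower (adjusted p = 0.702), which ranked 12 from the lowest among 12296 genes. It was −1.18 when control array 1 was left out and −2.39 when control array 2 was. The second NCAPG probe set, 218663_at, read 590 and 511 with rhSTIP1 and 2656 and 1279 in the controls, at −1.72 ± 0.37.

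NCAPD2, the other HEAT-repeat subunit of condensin I, had signals of 264 and 293 with rhSTIP1 and 542 and 461 in the controls. It was 1.75-fold lower, at −0.81 ± 0.26 (adjusted p = 0.991). The arrays of each group lay close together, and leaving out any 1 array kept the value between −0.70 and −0.92. NCAPH, the kleisin that closes the condensin I ring, had signals of 227 and 277 with rhSTIP1 and 722 and 338 in the controls, at −0.94 ± 0.38 (adjusted p = 0.999). Its control arrays differed by more than the lower control differed from either rhSTIP1 array. Without control array 1 its value was −0.41 and it was no longer separated by 1.5-fold, and without control array 2 it was −1.47.

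The condensin II subunits stood nearer to 0. NCAPG2, a HEAT-repeat subunit, was the only one of the 3 that was separated. It had signals of 376 and 439 with rhSTIP1 and 768 and 622 in the controls, at −0.74 ± 0.25 (adjusted p = 0.999). NCAPD3, the other HEAT-repeat subunit, had signals of 631 and 912 with rhSTIP1 and 1128 and 971 in the controls. The second rhSTIP1 array almost reached the lower control. The fold change was −0.46 ± 0.27, with a 95% interval from −1.09 to 0.18, and it was −0.20 without rhSTIP1 array 1 and −0.72, then separated, without rhSTIP1 array 2.

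NCAPH2, the kleisin of condensin II, had signals of 364 and 388 with rhSTIP1 and 442 and 403 in the controls. The groups did not overlap but lay within a narrow range. Its log2 fold change was −0.16 ± 0.25, with a 95% interval from −0.74 to 0.41, and −0.10 without control array 1. It has 5 probe sets, and the brightest was the one just given. Of the other 3 that were tested, 40640_at was at −0.18 ± 0.31, 227076_at at −0.12 ± 0.44 and 209718_at at 0.20 ± 0.35. Their directions differed and each lay within 1 standard error of 0. The fifth, 221633_at, was under the level for testing, with 52.7 and 54.9 with rhSTIP1 and 68.0 and 11.0 in the controls, and with the mean of all 5 NCAPH2 stood at 0.06.

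Set side by side, the fold changes of the condensin I subunits ran from −1.78 to −0.81 and those of the condensin II subunits from −0.74 to −0.16. Their means were −1.18 and −0.45. Without control array 1 the means were −0.76 and −0.35, and the ranges overlapped, from −1.18 to −0.41 for condensin I and from −0.60 to −0.10 for condensin II. After each gene was centred on its own mean, the condensin I genes averaged −0.57 and −0.61 on the rhSTIP1 arrays and 1.01 and 0.17 on the control arrays. The condensin II genes averaged −0.36 and −0.09 on the rhSTIP1 arrays and 0.33 and 0.12 on the control arrays. These averages of the complexes lay farthest apart on control array 1 and next on rhSTIP1 array 2. The difference between the complexes was not tested, since a score over a few chosen genes has only 4 arrays behind it.

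**Figure D2:**
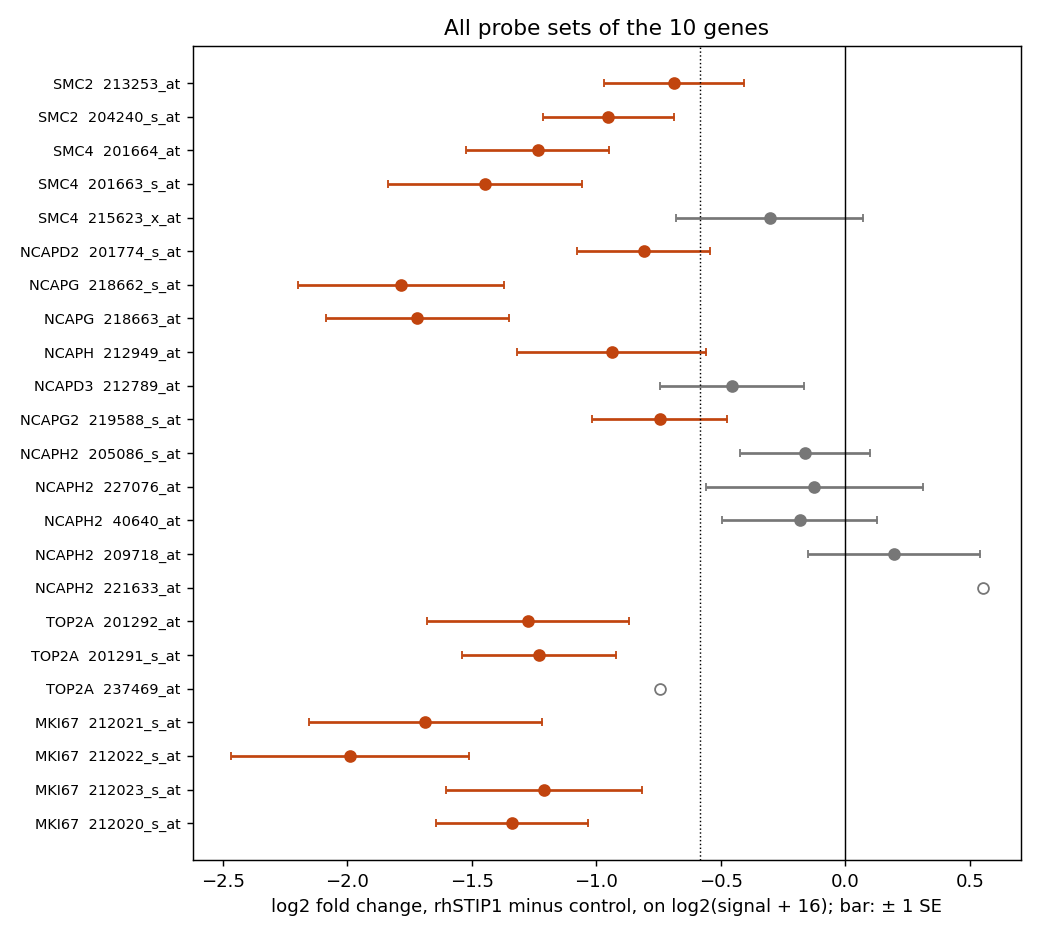
Log2 fold change (rhSTIP1 minus control, x axis) of all 23 probe sets of the 10 genes, with bars of 1 standard error. Orange marks the 15 probe sets that were separated and lower, grey the other tested ones, open circles the 2 too dim to test, and the dotted line a 1.5-fold difference. The NCAPH2 probe sets straddle 0, while all 4 of MKI67 lie between −1.99 and −1.21.

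TOP2A, the topoisomerase that untangles sister DNA before anaphase, had signals of 2895 and 1596 with rhSTIP1 and 7544 and 3616 in the controls. The higher rhSTIP1 array came close to the lower control, and in both groups array 2 was below array 1. The log2 fold change was −1.27 ± 0.41, or 2.42-fold lower (adjusted p = 0.999). It was −0.75 without control array 1, −0.85 without rhSTIP1 array 2, −1.70 without rhSTIP1 array 1 and −1.80 without control array 2. A second probe set, 201291_s_at, read 394 and 599 with rhSTIP1 and 1008 and 1339 in the controls, at −1.23 ± 0.31.

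Both TOP2A probe sets gave about the same group difference, but the arrays within a group were ordered oppositely. The log2 difference of array 2 minus array 1 was −0.85 on 201292_at and 0.59 on 201291_s_at in the rhSTIP1 group, and −1.06 and 0.40 on the same probe sets in the controls. The third, 237469_at, was too dim to test, with 3.61 and 21.8 with rhSTIP1 and 63.6 and 10.2 in the controls.

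MKI67 had signals of 989 and 465 with rhSTIP1 and 3339 and 1477 in the controls on its brightest probe set. Array 2 was the lower one in both groups, and rhSTIP1 array 1 was the nearer to the controls. The lower control was above it by 0.57 log2 units, less than the 1.17 between the control arrays. The log2 fold change was −1.69 ± 0.46, or 3.22-fold lower (adjusted p = 0.823), and was −1.10 when control array 1 was left out and −2.27 when control array 2 was. All 4 of its probe sets were separated and lower. Probe set 212022_s_at gave −1.99 ± 0.48, with 823 and 325 with rhSTIP1 and 2941 and 1508 in the controls. Probe set 212023_s_at gave −1.21 ± 0.39, with 724 and 486 with rhSTIP1 and 2027 and 958 in the controls. Probe set 212020_s_at, with 430 and 410 with rhSTIP1 and 1380 and 856 in the controls, gave −1.34 ± 0.31, and its rhSTIP1 arrays agreed more closely than those of the other 3. Probe sets of one gene share its transcripts and are not replicates.

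Over all probe sets, 21 of the 23 were bright enough to test. Of these 15 were separated and lower, 0 separated and higher and 6 neither, against 4.35% separated and lower among 27307 probe sets tested. The 6 were 4 of NCAPH2, the 1 of NCAPD3 and the dim SMC4 probe set. At an unadjusted p under 0.05 there were 15, against 2.31% of all probe sets that were lower at that p. None passed an adjusted p of 0.05 in limma (0 of 21, and 0% of all).

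Arrays of the same group also differed over these genes. The rhSTIP1 arrays showed no common order, with array 2 below array 1 for 4 of the 10 and a median log2 difference of 0.05. The lower values of rhSTIP1 array 2 were in MKI67 (−1.06), TOP2A (−0.85), NCAPG (−0.54) and, by only −0.02, SMC2, whereas NCAPD3 was higher there by 0.52. Control array 2 was below control array 1 for all 10, by a median of −0.64 on the log2 scale. It was so by at least 1.5-fold for 5 of them (SMC4, NCAPG, NCAPH, TOP2A and MKI67), against 9.51% of all genes tested. Over all genes the median difference was 0.04 between the rhSTIP1 arrays and 0.03 between the control arrays.

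Each rhSTIP1 array was therefore also set against each control array. The median difference over the 10 genes was −1.19 and −1.14 for rhSTIP1 arrays 1 and 2 against control array 1. Against control array 2 it was −0.59 and −0.56. The smallest of these differences for a gene that was separated was −0.27, for NCAPH between rhSTIP1 array 2 and control array 2. For TOP2A the smallest was −0.32, between rhSTIP1 array 1 and control array 2. For NCAPG, SMC4 and NCAPD2 all 4 differences exceeded 1.5-fold, the smallest being −0.91, −0.84 and −0.62.

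**Figure D3:**
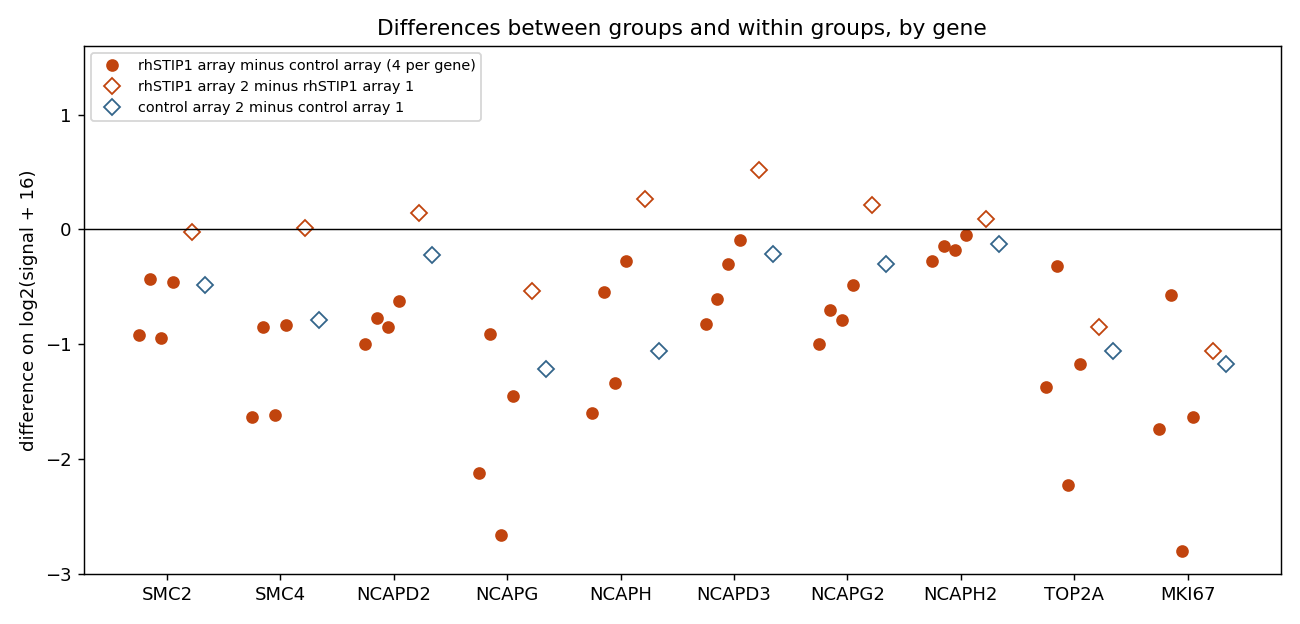
Differences on the log2(signal + 16) scale for each gene (x axis). Filled orange circles are the 4 differences of an rhSTIP1 array minus a control array, open orange diamonds rhSTIP1 array 2 minus array 1, and open blue diamonds control array 2 minus array 1. All filled circles lie below 0, and so do all 10 blue diamonds, the lowest of these at −1.21 for NCAPG.

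Within the whole table the 10 genes spread over the lower tail and the middle. After NCAPG came MKI67, at rank 21 from the lowest fold change, TOP2A at 82 and SMC4 at 97. NCAPH (224), NCAPD2 (298), NCAPG2 (357) and SMC2 (410) came next. NCAPD3 stood at 966 and NCAPH2 at 3186. A log2 fold change of −1 or lower was found for 4 of the 10 and for 1.55% of all genes.

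**Figure D4:**
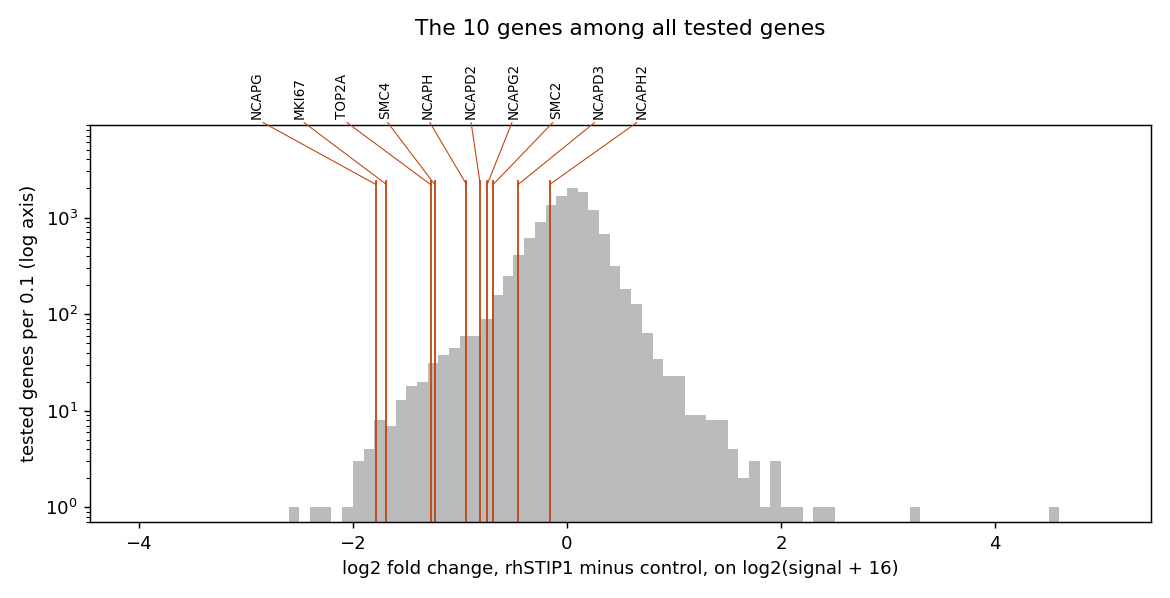
Number of tested genes (log axis) by log2 fold change, rhSTIP1 minus control, with lines at the 10 genes. NCAPG (−1.78) and MKI67 (−1.69) lie in the lower tail, and NCAPH2 (−0.16) lies under the central peak.

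Related genes were taken from lists chosen by function, with earlier results of these data known, so their counts are no independent support. Condensin is phosphorylated by mitotic kinases, and 15 of 17 listed regulators were tested. Of these 8 were separated and lower and 0 higher, where 3.79% of all genes were lower, and their median was −0.95 where that of all genes was 0.02. CDK1, the kinase that drives mitotic entry and phosphorylates condensin, had signals of 2076 and 2095 with rhSTIP1 and 6202 and 5026 in the controls, at −1.41 ± 0.22. AURKB, the kinase of the chromosomal passenger complex that promotes condensin I loading, had 419 and 219 with rhSTIP1 and 2329 and 761 in the controls, at −2.08 ± 0.52. The lower control of AURKB was much nearer to the rhSTIP1 arrays than the other control was. CDCA8, a passenger complex subunit, was at −1.38 ± 0.37 and the checkpoint kinase TTK at −1.43 ± 0.42. The 7 regulators that were not separated had log2 fold changes between −1.20 and 0.14.

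Among 8 partners of the chromosome axis and of Ki-67 or protein phosphatase 1, 3 were separated and lower (3.79% of all genes), and the median was −0.25. CDCA2 (Repo-Man), which brings protein phosphatase 1 to chromosomes, had 410 and 367 with rhSTIP1 and 1955 and 858 in the controls, at −1.70 ± 0.38. The chromokinesin KIF4A, which works with condensin at the axis, was at −1.28 ± 0.43 and the chromokinesin KIF22 at −1.15 ± 0.32. NIFK, a nucleolar protein that binds the FHA domain of Ki-67, had 5304 and 6544 with rhSTIP1 and 8401 and 7565 in the controls, at −0.44 ± 0.21. NIFK was lower in both rhSTIP1 arrays but by less than 1.5-fold.

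Cohesin is the SMC complex that holds sister chromatids together, and 2 of its 14 listed genes were separated and lower (3.79% of all genes), with a median of −0.25. They were CDCA5 (sororin), which protects cohesin, at −1.38 ± 0.25, and ESCO2, which acetylates it in S phase, at −0.89 ± 0.36. STAG1, a core subunit, was at −0.54 ± 0.27 and the kleisin RAD21 at −0.32 ± 0.21. Neither STAG1 nor RAD21 was separated by 1.5-fold. For the SMC5/6 complex, which acts in DNA repair, 0 of 7 genes were separated (3.79% of all genes lower, 1.9% higher). The median of this complex was −0.02. Its lowest p values belonged to SMC5 (0.48 ± 0.26), SMC6 (−0.43 ± 0.25), EID3 (−0.49 ± 0.51) and NSMCE1 (0.20 ± 0.26).

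TOP2B, the isoform of topoisomerase II that non-dividing cells also express, had signals of 4743 and 5156 with rhSTIP1 and 4505 and 4439 in the controls. It was thus slightly higher in both rhSTIP1 arrays, at 0.14 ± 0.20, with a 95% interval from −0.32 to 0.61. The interval for TOP2A ran from −2.22 to −0.33. Of the 7 other topoisomerase genes and their repair enzymes, 0 were separated (3.79% of all genes lower, 1.9% higher), and the median was −0.07. TDP1 was at −0.24 ± 0.25, TOP1MT at 0.27 ± 0.28 and TOP3A at −0.12 ± 0.33. None of the related genes passed limma's adjusted p of 0.05 over all genes.

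**Figure D5:**
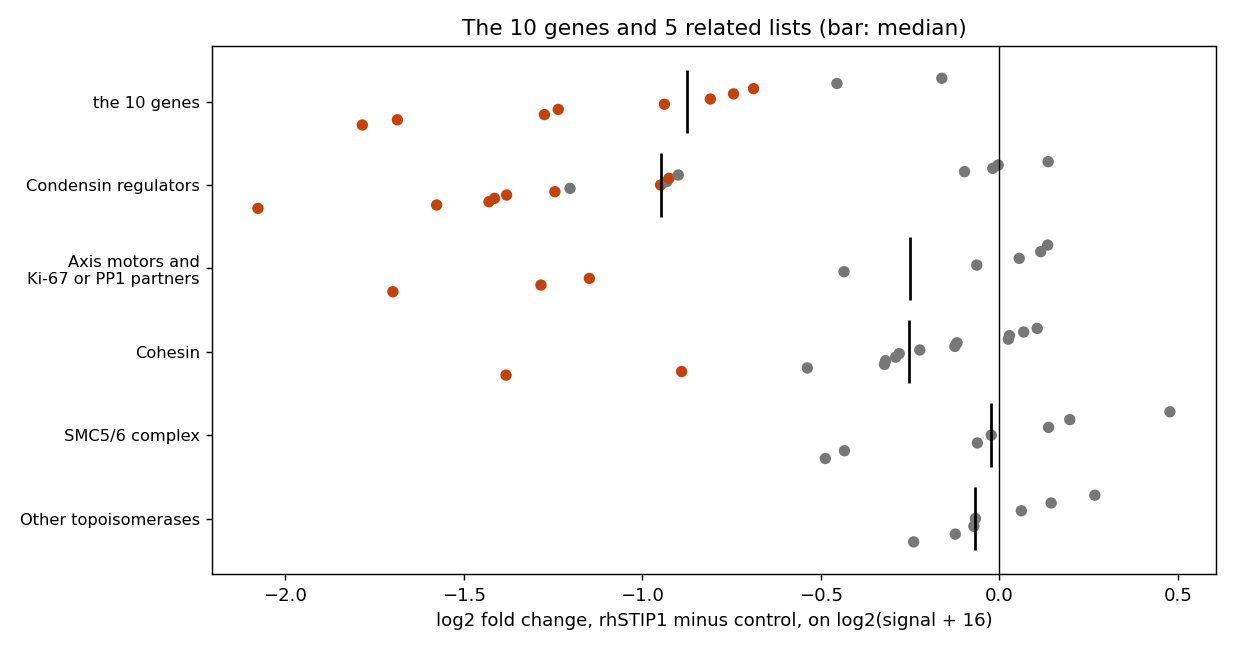
Log2 fold change (rhSTIP1 minus control, x axis) of the 10 genes (top) and of the tested genes of 5 related lists, 1 point a gene, orange where separated and lower, with a black bar at each median. The medians are −0.87 for the 10 genes, −0.95 for the condensin regulators and −0.02 for the SMC5/6 complex.

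The genes with the pattern nearest to the average of the 10 were found by the distance between log2 values over the 4 arrays, each gene centred on its own mean. They were PARPBP (distance 0.110), DIAPH3 (0.113), FBXO43 (0.140), INCENP (0.146) and CCDC134 (0.155), against a median of 1.18 over all genes tested. PARPBP had 218 and 207 with rhSTIP1 and 545 and 312 in the controls. DIAPH3, a formin, had 685 and 576 with rhSTIP1 and 1490 and 993 in the controls. All 5 had control array 1 highest and control array 2 next, which their choice by nearness to this average ensured. Of the 10 genes themselves SMC4 was nearest to their average (0.288) and MKI67 farthest from it (1.03). Over 4 arrays such a likeness is a description only.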

How the data were processed

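RNA of 4 SKOV3 samples was hybridised to Affymetrix arrays, 2 per group. The deposited values are probe set intensities on a linear scale, which per the submitters' processing notes the authors made with Affymetrix Expression Console 1.1 and its MAS5 method. That method summarises and scales each array separately, and its dim signals vary widely. Detection calls were not used here. Of 54613 probe sets other than 62 controls, 41091 had exactly 1 gene symbol, 1801 had several and 11721 none. All 23 of the genes described had 1. Each gene was represented by its brightest such probe set and tested where its mean signal reached 69.4, the median over probe sets, which kept 12296 of 19775 genes.

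Groups were compared on log2(signal + 16) with lmFit and eBayes (intensity trend) of limma 3.58.1 in R 4.3.3, two-sided, with Benjamini-Hochberg adjustment over all genes. A second fit used 27307 probe sets. The steps were tested on simulated data. The number of arrays limits the precision. The genes and lists were chosen with earlier results of these data known. Named genes were the 10 genes, up to 4 of each related list with the smallest p, and the 5 nearest in pattern. Alternatives covered pseudocount, filter, scaling, probe set choice, eBayes settings, replicate block, fold limit and leaving out 1 array at a time, where the array left alone is taken to vary like those of the other group.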

Additional observations from a re-analysis of the deposited data

How the results depend on the processing

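Besides the 2-fold limit, which changes only which genes count as separated, there were 15 alternatives. Of these, 10 can move the log2 fold changes of the 10 genes, and the 5 of filter, eBayes and block cannot. The 10 gave 100 values, of which 99 were below 0. The exception was NCAPH2 with the mean of its probe sets, at 0.056. Most of these signs were fixed in advance. Where groups do not overlap, another pseudocount or 1 array left out cannot turn the sign. Genes with 1 probe set repeat their main value under another probe set choice. The count of the 10 that were separated and lower was 8 under both alternatives each of pseudocount, scaling and probe set. Of all genes, from 2.76% to 5.05% were separated and lower under those settings. When a 2-fold difference was asked, the count of the 10 was 4, against 170 of all 12296 genes tested. With 1 array left out it ran from 6 (without control array 1) to 9 (without rhSTIP1 array 2). The former took out SMC2 and NCAPH, and the latter added NCAPD3. A single array in a group overlaps less easily, and 5.32% and 7.71% of all genes were then separated and lower, against 3.79% with all arrays. The median log2 fold change of the 10 was −0.65 when control array 1 was left out and −1.20 when control array 2 was, the extremes of the 4. After median centring NCAPD3 and NCAPH2 overlapped between groups, and NCAPH2 did so also with the mean of its probe sets and with its second brightest one.

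Over all genes, the number separated and lower was 466, against 1232 with no filter, 301 with a filter at the 70th percentile, 170 at 2-fold, and from 654 to 1034 with 1 array left out. Of the separated genes 66.6% were lower, against 49.4% after median centring. The number past the adjusted p was 0, against 1 with the filter at the 70th percentile, 2 with robust eBayes and from 0 to 6 with 1 array left out. With the replicate number as a block it was 247, including SMC4, NCAPG, TOP2A and MKI67 among the 10. Arrays with the same number share that number in their titles and also have adjoining sample identifiers. Their deviations from the group means correlated at 0.36 over genes in 2 pairs. The labels do not say what the number stands for, so the block is given here only. The causes of these shifts were not tested.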
